A study of Mus musculus with 3 samples.

Results

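Blood vessel endothelial cells were sought in single-cell RNA data of whole mouse prostate by a rule on 6 endothelial genes. A barcode, the tag that marks the RNA of one droplet, was chosen by its own RNA counts, when it held at least 500 genes, at most 15% mitochondrial unique molecular identifiers (UMIs, the counted RNA molecules), and at least 4 UMIs over Pecam1, Cdh5, Emcn, Cldn5, Vwf and Egfl7 from at least 2 of them. A chosen barcode also had less than 10% of its UMIs from 7 seminal vesicle secretory (Svs) genes and less than 5% from probasin (Pbsn). The rule chose 606 of 32139 barcodes, which were 213 of 13273 in the knockout library, 164 of 5000 in heterozygote 1 and 229 of 13866 in heterozygote 2. Because the barcodes were selected on these measured values, the levels of the 6 genes, of the Svs genes and of Pbsn in the chosen barcodes are descriptions. They were part of the fits over all genes, where 8, 5 and 5 of the calls given below (all chosen barcodes, endothelial barcodes, cluster 1) are such genes, and nothing is read from them. At the edge of the rule, 19, 23 and 28 chosen barcodes (knockout, heterozygote 1, heterozygote 2) held exactly 4 UMIs of the 6 genes, while 27, 37 and 69 barcodes that met every other limit held 3.

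The tissue came from C57BL6 mice of 12 to 15 weeks. One library was labelled Srd5a2 knockout and 2 were labelled Srd5a2 heterozygous, so the controls also lack 1 working copy of the gene by their label, and wild-type tissue was not analysed here. The Srd5a2 protein is a steroid 5α-reductase, the enzyme that makes dihydrotestosterone out of testosterone. All 3 tissues were held at 37 °C for 2 h in collagenase to which 10 µM rock inhibitor and 1 nmol dihydrotestosterone had been added, and for 10 min in TrypLE. A red blood cell lysis step of 3 min was also part of the protocol for all 3. RNA levels were therefore read after these exposures. The sources used here do not say how the mutant allele was made or how many animals went into a library. With 1 knockout library, the spread behind each p-value comes from the 2 heterozygotes and may be technical.

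Endothelial cells line all vessels. They are joined by VE-cadherin (Cdh5) and PECAM1, and they depend on vascular endothelial growth factor acting on Kdr, with Flt1 binding the same ligands. Arterial cells carry a Notch and connexin program, capillary cells take up fatty acids with the help of Cd36, Gpihbp1 and Fabp4, and venous cells catch leukocytes with P- and E-selectin (Selp, Sele) and Vcam1. Blood flow over the vessel wall raises the transcription factors Klf2 and Klf4. The vessels of the prostate are known to regress with the gland after castration.

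The chosen barcodes held 2500324, 1868815 and 2651007 UMIs in the knockout, heterozygote 1 and heterozygote 2. Srd5a2 had 16 UMIs in the 9983 knockout barcodes that passed the gene and mitochondrial limits, against 144 in 4718 and 177 in 10587 heterozygote barcodes, and 0 UMIs in any of the 606 chosen barcodes. A count of 0 allows up to 1.41%, 1.83% and 1.31% of chosen barcodes with an Srd5a2 UMI in the 3 libraries. The knockout stood apart in seminal vesicle RNA, since the 7 Svs genes took 42.6% of UMIs in its kept barcodes against 13.6% and 12.0%. Heterozygote 1 had no barcode under 2466 UMIs, while the lowest were 586 in the knockout and 500 in heterozygote 2. The libraries shared 15, 57 and 16 barcodes in pairs, and no barcode was chosen in more than 1 of them.

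The label held for fewer than all of the chosen barcodes. Of 21 broad endothelial genes that the rule did not use (among them Kdr, Flt1, Tie1, Tek, Eng, Erg and Ptprb), 281 chosen barcodes expressed 5 or more, 319 expressed 2 or fewer, and 6 lay between. The first set, called endothelial barcodes here, held 124, 64 and 93 barcodes in the knockout, heterozygote 1 and heterozygote 2, with a median of 13, 12 and 10 of the 21 genes and a median of 2, 1 and 3 UMIs over 8 epithelial genes. The second set held 87, 100 and 132 barcodes, with a median of 0 of the 21 genes and of 109, 75.5 and 83.5 epithelial UMIs. Its barcodes were also deeper, with a median of 18992, 15840 and 16042 UMIs against 3962, 3478 and 2731 in the endothelial barcodes. Of these epithelial barcodes, 79 of 87, 95 of 100 and 125 of 132 met the rule with Pecam1 and Emcn alone, which was so for 3, 0 and 2 endothelial barcodes.

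**Figure D1:**
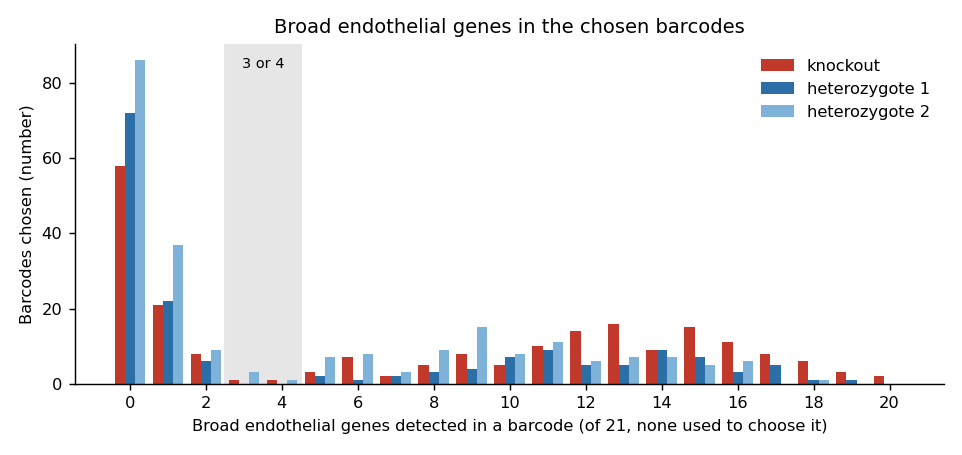
Number of chosen barcodes (y axis) by the number of 21 broad endothelial genes detected (x axis), with a bar for each library. The 319 barcodes with 2 or fewer genes and the 281 with 5 or more are parted by a stretch (grey) that holds 6 barcodes.

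Pnliprp1, Scin, Ren1, Mt3 and Agr2 were among the 10 leading genes of cluster 1 (described below), where 317 of 330 barcodes were epithelial. That ranking was made against the other chosen barcodes, mostly endothelial, and not against other epithelium. Scin encodes the actin-severing protein scinderin, Ren1 encodes renin and Agr2 is a protein-folding enzyme of secretory epithelium. All kept epithelial barcodes were then split by their Scin UMIs, inside the Svs and Pbsn limits and whether chosen or not. This split is not free of selection on Pecam1. Scin was picked from barcodes that mostly met the rule with Pecam1 and Emcn, and the chosen barcodes stayed in the classes. With at least 3 Scin UMIs, Pecam1 stood at 218, 269 and 256 CPM (UMIs per 1000000 UMIs counted) in the knockout, heterozygote 1 and heterozygote 2, and 73.4%, 76.0% and 72.2% of barcodes held a Pecam1 UMI. With 0 Scin UMIs it stood at 12.8, 32.1 and 26.1 CPM, and in fibroblast barcodes at 6.15, 5.80 and 5.05 CPM. Pecam1 was higher with Scin in each of the 3 libraries, which is a description. The endothelial barcodes, where Pecam1 helped to make the choice, stood well above this, at 1202, 1473 and 794 CPM.

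Emcn, the sialomucin endomucin of veins and capillaries, stood at 22.6, 34.8 and 24.5 CPM with at least 3 Scin UMIs and at 7.51, 8.14 and 14.2 CPM with 0. Cdh5 and Kdr were rare there. In the barcodes with at least 3 Scin UMIs, Cdh5 had 2 UMIs in the 425 knockout barcodes and Kdr also had 2. The knockout's endothelial barcodes had 896 and 631 CPM, but they were chosen on Cdh5 and classed on Kdr. The limit of at most 2 broad endothelial genes, Kdr among them, also held such genes down in the Scin classes beforehand, so nothing is read from this gap. The barcodes with at least 3 Scin UMIs had a median of 15019, 10852 and 13557 UMIs, against 5220, 6274 and 6767 with 0 Scin UMIs. The part of depth in the share of barcodes with a UMI was not tested.

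**Figure D2:**
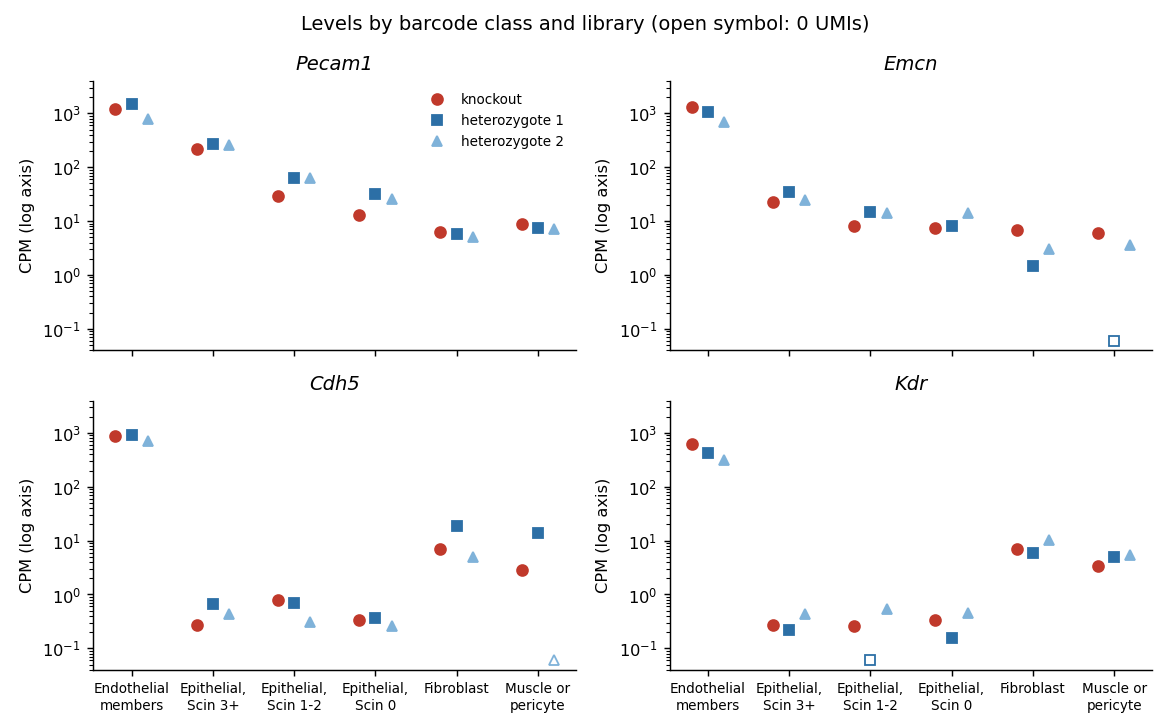
CPM (log y axis) of Pecam1, Emcn, Cdh5 and Kdr in 6 classes of barcodes (x axis), with a symbol for each library and an open symbol at the foot of the axis for 0 UMIs. Pecam1 stands at 218 to 269 CPM in epithelial barcodes with at least 3 Scin UMIs, while Cdh5 and Kdr stay under 1 CPM there. The epithelial, fibroblast and muscle classes hold only barcodes with at most 2 of the 21 broad endothelial genes, Kdr among them.

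The share of kept barcodes that the rule chose was 2.13% in the knockout, 3.48% in heterozygote 1 and 2.16% in heterozygote 2. Endothelial barcodes made up 1.24% (exact 95% binomial interval 1.03 to 1.48%), 1.36% (1.05 to 1.73%) and 0.878% (0.710 to 1.08%), and the knockout lay between the heterozygotes. Over the barcodes inside the Svs and Pbsn limits alone, the shares were 2.18%, 1.66% and 1.08%, with the knockout above both. The order thus depended on the denominator, since the Svs limit takes a larger part of the knockout's barcodes. It also dropped 35 knockout barcodes that met the rest of the rule, against 7 and 18. With 1 library against 2, the exact permutation test cannot give a p below 0.33.

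Clustering of the 606 barcodes gave 6 groups, which are described and not tested because the genes that define them also made them. Cluster 1 held 330 barcodes and nearly all of the epithelial ones (317), led by the genes named above, and had none of the 21 broad endothelial genes among its detected markers. Clusters 2 to 6 held the endothelial barcodes other than 10 that fell into cluster 1. They also held a few other barcodes, since 77 of 78 barcodes in cluster 3 and 33 of 37 in cluster 4 were endothelial. Cluster 2, with 99 barcodes, was capillary-like and led by Igfbp3, the basement membrane collagens Col4a1 and Col4a2, Rgcc, Gpihbp1 and Kdr, with Rgs5, a gene known from pericytes, also among its 10 leading genes. Col4a1 reached 1729 CPM there against 64.9 CPM in all other chosen barcodes. Cluster 4, with 37 barcodes, was also capillary-like, with Cxcl12 at 1552 CPM, the retinol-binding Rbp7 at 469 CPM and Cd300lg at 391 CPM, against 50.2, 10.5 and 15.7 CPM elsewhere.

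Cluster 5 was venous-like. Its 35 barcodes held 7 of 8 venous markers, with P-selectin (Selp) at 9545 CPM, the chemokine-binding Ackr1 at 1466 CPM, Vcam1 at 2022 CPM and Sele at 920 CPM. Csf3, which encodes the granulocyte growth factor G-CSF, was at 1881 CPM against 10.7 CPM in the other chosen barcodes. Cluster 6 was arterial-like. Its 27 barcodes held all 12 arterial markers, with Sema3g at 472 CPM, Gkn3 at 384 CPM and the elastic fibre protein Fbln5 at 845 CPM, against 6.35, 3.18 and 20.4 CPM elsewhere. Plvap, the diaphragm protein of fenestrated capillaries and venules, was at 1102 CPM in cluster 5 and at 0 UMIs in cluster 6. Cluster 3, with 78 barcodes, was led by Tagln, Tpm2, Apoe, Thbs1 and Vim and had 19 of the 21 broad endothelial genes among its detected markers. It had 3 detected capillary markers, against 1 arterial and 1 venous, which the planned rule names capillary-like. Because no capillary marker was among its 10 leading genes, a condition added to that rule, it was left unnamed. Tagln there was mainly 1 library, with 375 of 425 UMIs in heterozygote 1. All endothelial barcodes of heterozygote 1 held 268 Tagln UMIs, so part of the 375 came from outside the endothelial set.

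**Figure D3:**
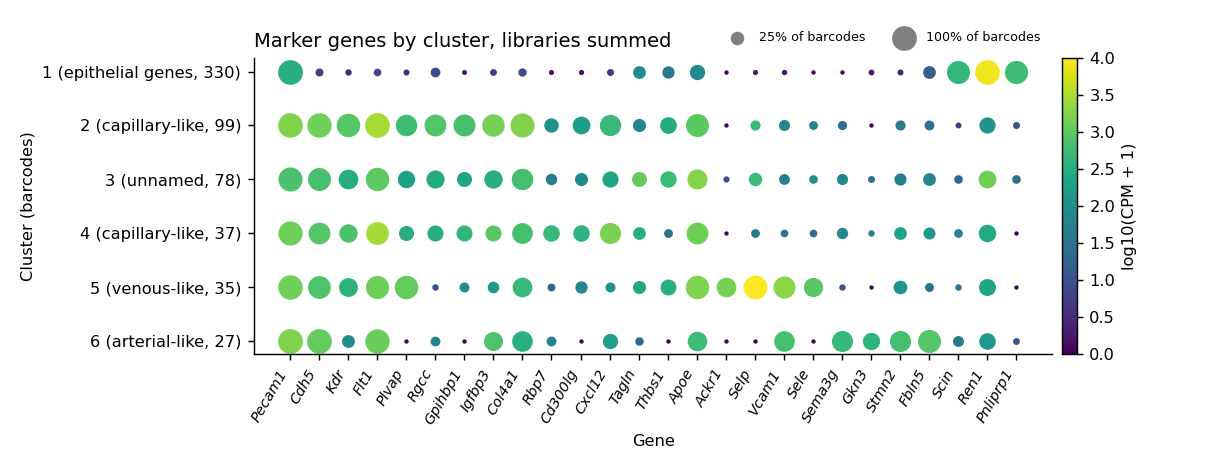
Marker genes (x axis) in the 6 clusters (y axis, with the number of barcodes), all libraries summed. Colour gives log10(CPM + 1) and size the percent of barcodes with a UMI. Selp (9545 CPM) and Ackr1 mark cluster 5, Sema3g and Gkn3 cluster 6, and Scin and Pnliprp1 cluster 1, where 10 of 330 barcodes were endothelial.

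Lymphatic vessels formed no cluster. Barcodes with at least 2 UMIs from at least 2 of 8 lymphatic genes numbered 7, 3 and 3 among the chosen barcodes and 4, 2 and 2 among the endothelial ones. The lymphatic chemokine Ccl21a had 170 UMIs in 3 chosen knockout barcodes, 149 of them in 1 barcode, and 0 in the heterozygotes.

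The mixture of clusters differed between libraries, most in cluster 1. Cluster 1 held 44.1% of the knockout's chosen barcodes (exact 95% binomial interval 37.4 to 51.1%), against 61.0% (53.1 to 68.5%) and 59.4% (52.7 to 65.8%). Cluster 2 held 23.5% against 12.8% and 12.2%, and cluster 3 held 19.7% against 7.93% and 10.0%. The venous-like cluster held 3.76% (1.64 to 7.27%) against 6.71% and 6.99%, and the arterial-like cluster 3.76% against 7.32% and 3.06%, with intervals that overlap. Clustered without centring within libraries, the venous-like share was 6.10% against 3.66% and 6.99%. Over clusters 2 to 6 alone, a denominator added after the data were seen, cluster 2 held 42.0% against 32.8% and 30.1%, cluster 3 held 35.3% against 20.3% and 24.7%, and the venous-like cluster 6.72% against 17.2% in both. The intervals of the knockout overlapped those of both heterozygotes in each of these clusters. The intervals cover counting error within a library only, and the Svs gap named above was present in the same libraries. When the tree was cut into 8 clusters, cluster 1 split, and 81 of its knockout barcodes formed a cluster with 0 heterozygote barcodes, led by Svs4, Sva and Ceacam10 among others.

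**Figure D4:**
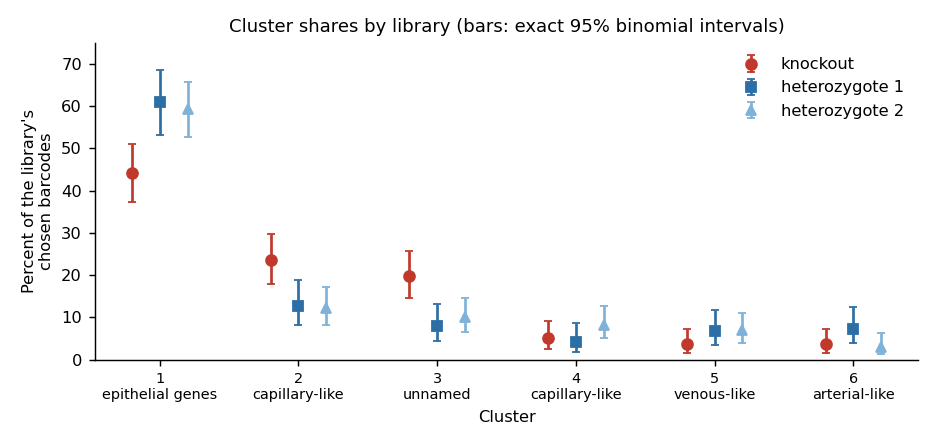
Percent of each library's chosen barcodes (y axis) in each cluster (x axis), with exact 95% binomial intervals. The knockout lies at 44.1% in cluster 1, below both heterozygotes, and above both in clusters 2 and 3.

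Summed over all 606 barcodes, genotype and mixture cannot be told apart, because endothelial barcodes were 58.2% of the chosen barcodes in the knockout and 39.0% and 40.6% in the heterozygotes. They gave 24.9%, 13.2% and 15.7% of the UMIs. In this fit 328 of 11503 genes passed the threshold (2.85%; edgeR quasi-likelihood, adjusted p under 0.05), 245 higher in the knockout (2.13%) and 83 lower (0.722%). All 21 broad endothelial genes lay above both heterozygotes and 8 were called higher, where 35.2% of all genes lay above both. Their median log2 difference was 0.86 against -0.02 over all genes. Kdr was at 162 CPM in the knockout and 56.9 and 48.7 CPM in the heterozygotes (log2 difference 1.62 ± 0.28 SE, adjusted p = 3.37e-06). Adgrl4, an adhesion receptor of endothelium, was at 204 against 66.7 and 55.4 CPM (1.75 ± 0.28). Genes called lower included Ramp1, a receptor partner for calcitonin gene-related peptide (18.6 against 115 and 72.3 CPM), and Gm32122 (2.47 against 44.4 and 55.0 CPM). Kdr and Adgrl4 kept their direction in the endothelial barcodes alone but passed no threshold there, at 0.88 ± 0.47 and 1.03 ± 0.48 (adjusted p = 1.00 and 0.988).

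The comparison within endothelial cells therefore uses the 281 endothelial barcodes, a selection added after the data were seen. They held 621609, 246365 and 417035 UMIs. Of 6829 genes tested, 28 passed the threshold (0.410%), 16 higher in the knockout (0.234%) and 12 lower (0.176%). At an unadjusted p under 0.05 there were 299. After leaving out genes of the rule, secretory and other genes abundant in barcodes with under 500 genes, and genes with at least 50% of their UMIs in 5 barcodes, 2 genes were left, Klf2 and Il31ra, and both were lower in the knockout.

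Klf2, on mm10 chromosome 8 at 72319033 to 72321656, encodes the flow-induced transcription factor that keeps endothelium quiescent. It had 41 UMIs in 27 of 124 knockout barcodes, 88 UMIs in 25 of 64 barcodes of heterozygote 1 and 84 UMIs in 36 of 93 of heterozygote 2. These are 72.1, 348 and 216 CPM, so the knockout lay below both heterozygotes (log2 difference -1.95 ± 0.51 SE, adjusted p = 0.0341). Klf2 lay below both heterozygotes in each of the 6 clusters as well, of which clusters 2 to 6 hold nearly the same UMIs as the sum and are no separate support. It stood at 40.7 against 160 and 125 CPM in capillary-like cluster 2, at 233 against 1286 and 774 CPM in capillary-like cluster 4, at 248 against 679 and 842 CPM in the arterial-like cluster, and at 0 UMIs against 139 and 111 CPM in the venous-like cluster. Klf4, its close relative, had a log2 difference of -0.64 and did not pass (adjusted p = 1.00). The call depended on the test and on filters, with an adjusted p of 0.0108 in limma-voom, 1.00 in DESeq2, 0.0624 with plain library totals and 0.256 with mitochondrial UMIs at most 10%, while the difference stayed between -1.87 and -2.62 over 18 alternatives. The barcodes of clusters 2 to 6 (119, 64 and 93) leave out the 10 endothelial barcodes of cluster 1 and add a few that were not endothelial. In their edgeR fit 143 genes passed, 28.7% of them higher, and the adjusted p of Klf2 was 1.00e-05.

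Il31ra, on chromosome 13 at 112519898 to 112594360, encodes a receptor subunit for interleukin 31. It had 16, 25 and 52 UMIs, or 28.1 CPM in the knockout against 98.9 and 133.5 CPM (-2.05 ± 0.54, adjusted p = 0.0340), with 14.3% of the heterozygote UMIs in 5 barcodes. It too lay below both heterozygotes in all 6 clusters. It was at 20.4 against 106 and 173 CPM in cluster 2 and at 10.1 against 17.8 and 26.9 CPM in cluster 1. The knockout sums of clusters 4, 5 and 6 held 30074, 26873 and 28200 UMIs, so the place of Il31ra there rests on few UMIs. As for Klf2, clusters 2 to 6 are no separate support. Il31ra passed in 7 of 18 alternatives and Klf2 in 8 of 18, with the same direction in all.

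Neither difference was shown to be particular to endothelium. In fibroblast barcodes, scaled together with the endothelial ones, Klf2 was at 125 against 301 and 208 CPM, and in smooth muscle or pericyte barcodes at 53.4 against 154 and 186 CPM. The difference of the genotype differences was -0.93 ± 0.51 against fibroblasts and -0.17 ± 0.51 against muscle or pericytes (adjusted p = 1.00 for both). Il31ra was at 54.8 against 110 and 177 CPM in fibroblasts and at 41.3 against 73.7 and 124 CPM in muscle or pericytes, with differences of -0.65 ± 0.63 and -0.70 ± 0.50 (adjusted p = 1.00 for both). Of the 25 immediate early genes listed, which cell dissociation is known to raise and which include Klf2, 24 were tested, and Klf2 was the gene called, with a median of 0.01 against -0.03 over all genes. Fos was at 765 against 1132 and 511 CPM and Junb at 1882 against 1777 and 1360 CPM, so the knockout lay between the heterozygotes for Fos and above both for Junb, and neither gene was called.

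**Figure D5:**
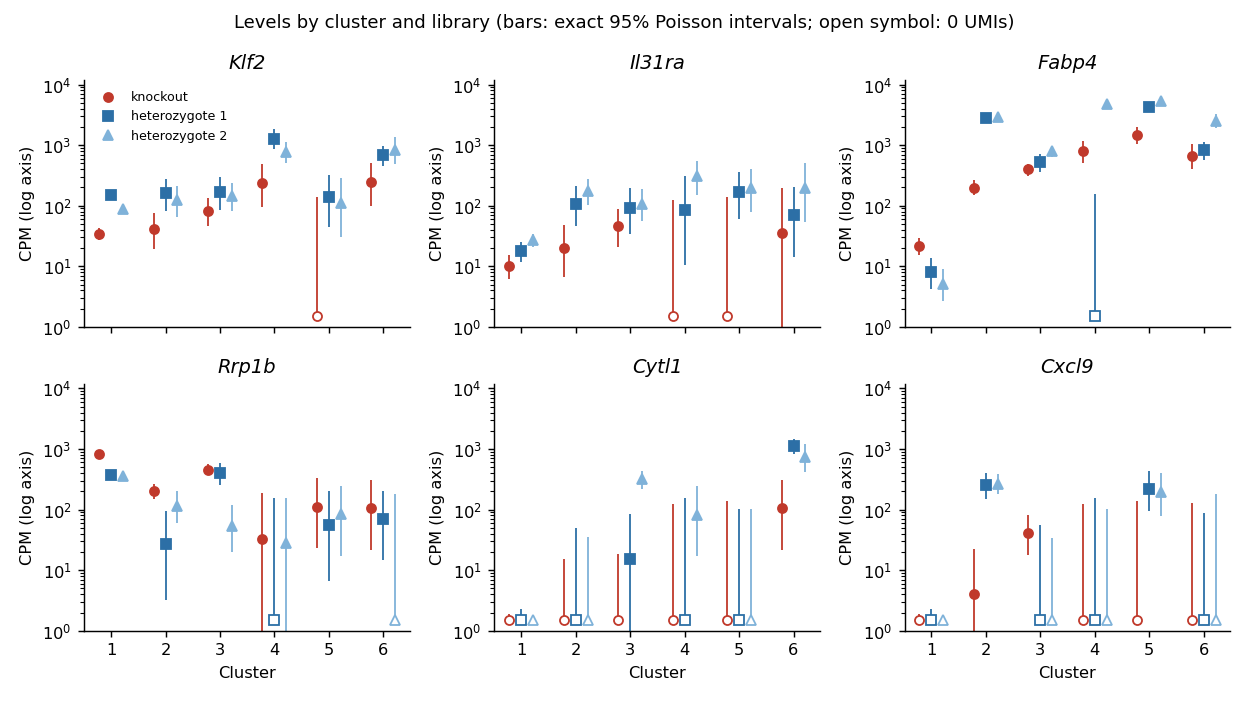
CPM (log y axis) of 6 genes in the 6 clusters (x axis), with a symbol for each library, exact 95% Poisson intervals for counting error, and open symbols for 0 UMIs. Klf2 and Il31ra lie lowest in the knockout in all 6 clusters and Rrp1b lies highest there in all 6. Cytl1 and Cxcl9, with most heterozygote UMIs in few barcodes, lie lowest in the knockout in 2 clusters each. Cxcl9 lies highest there in 1.

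Other called genes rested on few barcodes. Cytl1, a secreted cytokine-like protein and a leading gene of the arterial-like cluster, had 3 UMIs in 2 knockout barcodes, 49 UMIs in 8 and 50 UMIs in 6, or 5.27 against 194 and 128 CPM (-4.84 ± 0.71, adjusted p = 7.47e-09). The ratio of the pooled heterozygotes to the knockout was 29.2 (exact 95% interval 9.72 to 144), and 5 barcodes held 76.8% of the heterozygote UMIs. Within the arterial-like cluster it was at 106 CPM in 8 knockout barcodes against 1123 CPM in 12 and 743 CPM in 7. Cytl1 was among the 8 genes of this fit that DESeq2 also called (adjusted p = 0.0155). limma-voom did not call it (adjusted p = 0.989). Cxcl9, an interferon-induced chemokine for T cells, had 9, 27 and 35 UMIs, or 15.8 against 107 and 89.8 CPM (-2.60 ± 0.59, adjusted p = 0.00411), with 83.9% of the heterozygote UMIs in 5 barcodes. By cluster, Cxcl9 lay below both heterozygotes in 2 of the 6 clusters and above both in 1. In fibroblasts Cxcl9 was higher in the knockout, at 134 CPM against 0 UMIs in both heterozygotes. The fibroblast sums held 430, 54 and 179 barcodes in the knockout, heterozygote 1 and heterozygote 2. How Cxcl9 was spread over these barcodes was not computed.

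Fabp4, the fatty acid carrier of capillary endothelium, on chromosome 3, was not called over all endothelial barcodes. It had 241, 434 and 810 UMIs, or 424 against 1717 and 2079 CPM (-2.16 ± 0.66, adjusted p = 0.163), and was seen in 23 of 124, 32 of 64 and 49 of 93 barcodes. It stood at 199 against 2778 and 2943 CPM in cluster 2 and at 1488 against 4245 and 5418 CPM in the venous-like cluster. In capillary-like cluster 4 it stood at 798 CPM against 0 UMIs in 7 barcodes and 4754 CPM, between the heterozygotes. In cluster 1 Fabp4 was called the other way, at 22.3 against 8.14 and 4.93 CPM (1.81 ± 0.48, adjusted p = 0.0239), with 97.6% of the 42 knockout UMIs in 5 barcodes and 31 of them in endothelial barcodes. Over all endothelial barcodes it passed in 9 of 18 alternatives, among them barcodes with fewer than 10 epithelial UMIs (-2.89, adjusted p = 6.66e-11), limma-voom (adjusted p = 0.00164) and DESeq2 (adjusted p = 0.0391). The other capillary genes tested were not called. Gpihbp1, which anchors lipoprotein lipase, was at 355 against 321 and 347 CPM, Rgcc at 371 against 499 and 393 CPM, and the fatty acid transporter Cd36 at 137 against 174 and 246 CPM.

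The 16 genes called higher in the knockout's endothelial barcodes were known from other cells or secretions. They were 7 seminal vesicle genes, 5 of them Svs genes that the rule used, the secreted protease inhibitor-like Spinkl, 3 lymphatic genes, the myeloid Lyz2, Il1b and Ctss, and 2 basal keratins. Of the seminal vesicle genes that the rule did not use, Ceacam10 was at 958 against 15.8 and 12.8 CPM, Sva at 374 CPM against 1 UMI and 0 UMIs, and Pate4, which was not called, at 1014 against 281 and 1389 CPM. The median Svs share of an endothelial barcode was 3.52%, 0.348% and 0.671% in the 3 libraries, and the part of this RNA in the other results was not tested. Of the 8 lymphatic genes listed, Ccl21a, Nts and Mmrn1 were the 3 called. Ccl21a had 169 UMIs in 2 barcodes against 0, at least 63.6-fold above the floor of 3 UMIs over the pooled heterozygotes. Nts had 42 UMIs in 3 barcodes against 0, and the multimerin Mmrn1, found in lymphatics, had 38 UMIs in 2 barcodes against 0 and 2 UMIs. The myeloid genes Lyz2, Il1b and Ctss had 28, 69 and 39 UMIs, each in 3 knockout barcodes, against 0, 16 and 4 UMIs over the heterozygotes. Krt15 and Krt17, keratins of basal epithelium, were higher as well, with 97.3% and 100% of knockout UMIs in 5 barcodes.

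Of the 12 genes called lower, Sbp, Spink1, Tcaf3 and Mmp7 were among 83 genes abundant in barcodes with under 500 genes. Sbp was at 142 against 1159 and 10278 CPM, Spink1 at 446 against 605 and 9336 CPM and the metalloproteinase Mmp7 at 134 against 317 and 1409 CPM, all highest in heterozygote 2. Endothelial barcodes with at least 10 epithelial UMIs numbered 13 of 124, 8 of 64 and 15 of 93, and 5 barcodes held 75.8% of the heterozygote Sbp UMIs. Nupr1, a stress-induced chromatin protein, was at 22.9 against 59.4 and 519 CPM, with 88.0% of the heterozygote UMIs in 5 barcodes. Igfbp2, a binder of insulin-like growth factors, had 4, 41 and 7 UMIs, with 89.6% in 5 heterozygote barcodes, and 5330417C22Rik and Spink5 had 62.5% and 70.3% in 5.

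Calls were few among the vascular lists, as they were among all genes tested (0.410%), so a list of this size would hold about 0 at that share. Of the 12 arterial genes all were tested and none was called (median -0.52), with Fbln5 at 65.0 against 233 and 74.4 CPM and Sox17 at 329 against 313 and 264 CPM. Of 8 venous genes none was called (median -0.11), and Selp was at 1048 against 1072 and 1265 CPM. Of 27 genes of VEGF signalling 22 were tested and none was called (median 0.29). Kdr and Flt1 are on this list and also helped to define the endothelial barcodes, and Flt1 was at 1891 against 1986 and 1348 CPM. Of 22 basement membrane genes 21 were tested and none was called (median 0.26), with Col4a1 at 1243 against 902 and 493 CPM. Of 26 leukocyte adhesion genes 23 were tested, and Cxcl9 was the one called, while Icam1 was at 338 against 471 and 334 CPM. No call was made among 11 tested Notch genes, 19 junction genes, 24 interferon-stimulated genes, 22 oxidative phosphorylation genes or 16 heat shock genes, whose medians were at most 0.14. No call was made either among the lists of vascular tone (14 tested), coagulation (13), BMP and TGF-beta signalling (20), lipid uptake (14) and endothelial transcription factors (26), while Klf2 was the call in the lists of flow-responsive (12) and of angiopoietin and Tie genes (7). Over all genes tested the median was -0.03, and plain library totals in place of TMM scaling moved it to -0.13.

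The estrogen receptor gene Esr1 and the glucocorticoid receptor gene Nr3c1 were not called in endothelial barcodes. Esr1 was at 24.6 CPM in the knockout against 43.5 and 28.2 CPM, and Nr3c1 at 185 against 186 and 164 CPM. Srd5a1, the other 5α-reductase, had 1, 0 and 4 UMIs. Of 20 genes known to answer glucocorticoid or androgen, 16 were tested and none was called (median 0.10), with Cdkn1a at 1111 against 1128 and 891 CPM. Free RNA from other cells can add UMIs to these low counts, and its part was not tested.

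Rrp1b, which encodes a nucleolar protein, lies on chromosome 17 at 32036100 to 32062865, the chromosome that carries Srd5a2 at 74016955 to 74047916. In endothelial barcodes it was at 348 against 135 and 136 CPM (1.36 ± 0.45, adjusted p = 0.266), so it missed the threshold there, and it passed in 4 of 18 alternatives. It was above both heterozygotes in all 6 clusters, in cluster 4 on 1 UMI against 0 and 1. Over all 606 barcodes it was called (743 against 341 and 323 CPM, 1.16 ± 0.30, edgeR adjusted p = 0.00695). Rrp1b was also higher in the knockout's fibroblasts (260 against 151 and 107 CPM) and smooth muscle or pericytes (360 against 121 and 59.5 CPM). The difference of the genotype differences was 0.30 ± 0.50 against fibroblasts and -0.65 ± 0.44 against muscle or pericytes, and neither passed.

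Cluster 1, the largest, was tested as a group of its own, since it alone held at least 50 barcodes in every library. Of 10308 genes 96 passed (0.931%), 54 higher (0.524%) and 42 lower (0.407%) in the knockout. The genes lower in the knockout included Gm32122 (2.66 against 50.8 and 61.2 CPM), the secreted mucin-like Prol1 (4.25 against 38.2 and 86.2 CPM), Ramp1 (21.3 against 128 and 76.7 CPM), Scube2, a secreted signalling modulator (5.85 against 26.3 and 27.5 CPM), and the estrogen-regulated Greb1 (4.78 against 29.5 and 14.8 CPM). Those higher included the neuron navigator gene Nav3 (25.5 against 5.64 and 6.98 CPM), the gluconeogenic enzyme Fbp1 (86.6 against 32.6 and 32.8 CPM) and Rrp1b (880 against 374 and 351 CPM). Hspa1a and Hspa1b, inducible heat shock proteins, were higher at 1.27 ± 0.32 and 1.16 ± 0.32 on the log2 scale, the 2 calls among 16 heat shock genes. The copies are nearly identical, so the split of reads between them is uncertain.

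Klf2 was lower in cluster 1 also, at 36.1 against 154 and 83.3 CPM (-1.70 ± 0.36, adjusted p = 8.05e-04). Of 23 cholesterol synthesis genes 21 were tested there and none was called, and 16 of the 21 lay below both heterozygotes (median -0.63 against -0.02 over all genes), where 32.9% of all genes lay below both. In the sum over cluster 1, 6 of 7 tested muscle genes were called higher, each with at least 83.7% of the knockout UMIs in 5 barcodes. Acta2 was at 142 against 11.9 and 57.5 CPM and Actg2 at 69.1 against 2.51 and 3.69 CPM. Of the knockout's UMIs over the muscle list, 575 were in 5 endothelial barcodes that fell into this cluster and 400 in its 87 epithelial barcodes, against 68 in 99 and 448 in 131 epithelial barcodes of the heterozygotes. Of these, 294 of the 400 and 305 of the 448 UMIs were in 5 barcodes each.

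Tests of the difference itself called few genes whose genotype difference was unlike in endothelium and stroma. With 1 knockout library, few calls do not show that both changed alike. Of all 606 barcodes against fibroblasts 15 of 11783 genes passed (0.127%), and against smooth muscle or pericytes 144 of 12594 (1.14%), where the mixture named above enters. With the endothelial barcodes alone, 11 of 7839 genes passed against fibroblasts (0.140%) and 3 of 9530 against muscle or pericytes (0.0315%). Cxcl9 passed against fibroblasts (-11.56 ± 1.23, adjusted p = 8.48e-10). Igfbp3, an insulin-like growth factor binder and the leading gene of cluster 2, was at 649 against 1020 and 757 CPM in endothelium and at 1079 against 116 and 520 CPM in fibroblasts (-2.36 ± 0.52, adjusted p = 0.0214). The VEGF family member Pgf was at 57.9 against 27.8 and 12.8 CPM in endothelium and at 5.48 against 17.4 and 52.0 CPM in fibroblasts (4.34 ± 0.97, adjusted p = 0.0257), with 90.9% of its knockout UMIs in 5 barcodes. Most of the others were secretory or epithelial genes.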

How the data were processed

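Each library's deposited matrix holds UMI counts that have not been normalized. The submitters' processing notes name Cell Ranger 3.1.0 and the mm10 build, and the sources used here do not say how barcodes were called. Groups come from the genotype labels. The rule, the members and the 41 gene lists were chosen with earlier results of these data known. No doublet caller was run; members with 3 UMIs of another lineage's list were left out in an alternative instead. Counts were summed per library and tested with edgeR 4.0.16 (filterByExpr, TMM, quasi-likelihood, Benjamini-Hochberg over all genes, threshold 0.05), knockout minus heterozygote, 1 library against 2, with 1 residual degree of freedom. limma 3.58.1 (voom) and DESeq2 1.42.0 were alternatives. CPM in the genotype fits use TMM-scaled totals, and CPM of clusters and classes plain totals. Standard errors follow from the F statistic. Fibroblast and smooth muscle or pericyte barcodes had at least 8 UMIs and 4 genes of their lists and under 10 epithelial UMIs. For the comparison of Pecam1 between classes they also had at most 2 broad endothelial genes. For the interaction sums they had no such limit. There they held under 4 UMIs of the 6 marker genes, and more UMIs of their own list than of the other stromal, myeloid and lymphocyte lists. Differences between cell types were tested as an interaction over 6 sums. Clusters are Ward clusters on 15 principal components of 800 variable genes, centred within library. A cluster was named with at least 3 detected markers (log2 fold over 1, in 25% of barcodes) and one of them among its 10 leading genes. The condition on leading genes was added to the planned rule.

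Genes named are those called, changed the same way against each heterozygote, up to 15 per direction, outside the rule's genes and 83 genes with 0.1% or more of the UMIs of low barcodes (under 500 genes), at 10 CPM or more, and with under 50% of UMIs in 5 barcodes; called list genes, the most abundant list genes, Srd5a2, Rrp1b, Esr1 and Nr3c1 were added, and 1 further gene is not reported here. Called genes outside this rule were named after their values were seen. The split by broad endothelial genes was added after the data were seen. Intervals are exact at 95% and, like the floor of 3 UMIs, cover counting error only. The fits were also run on simulated counts with the same spread for every gene. Changes set in the endothelial simulation were larger than those of Klf2 and Il31ra, so its result does not bear on them. Gene positions are GENCODE vM21.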

Additional observations from a re-analysis of the deposited data

Results flagged for a closer look

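The genes below were flagged because the genotype difference (log2, knockout minus heterozygote) itself differed between endothelial barcodes and another cell type by the interaction test (edgeR, adjusted p under 0.05). Values are the difference of the 2 differences.

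Against fibroblasts, Msmb (5.45), Defb50 (4.02), Wfdc3 (4.26), Defb1 (3.56) and 9530002B09Rik (2.11) were higher in endothelial barcodes. Msmb and the defensins are secreted epithelial products, and 3 of the 11 genes flagged here (Msmb, Defb50 and 9530002B09Rik) are among the 83 genes abundant in barcodes with under 500 genes. Msmb was at 3923 against 99.3 and 1716 CPM in endothelial barcodes, so heterozygote 1 was the low library. Krt15 (3.21), the neuropeptide gene Gal (7.43) and Pgf (4.34) were higher as well. Cxcl9 (-11.56), Nupr1 (-3.17) and Igfbp3 (-2.36) were lower. The size for Cxcl9 depends on the prior count, because both heterozygote fibroblast sums were at 0 UMIs.

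Against smooth muscle or pericytes, Msmb (4.96), Defb50 (4.17) and Wfdc3 (4.24) were higher.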

How the results depend on the processing

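No paired analysis was possible because the knockout group holds 1 library and the groups share fewer than 2 replicate numbers. Counts of genes depended on the processing. Over all 606 barcodes the 328 called genes became 41 with DESeq2, 20 with at least 8 UMIs from at least 3 of the 6 marker genes, 167 with at least 1000 genes per barcode, 32 without barcodes holding other lineage markers, 209 with Svs genes under 5% and 79 when thinned to 1000 UMIs. In the endothelial barcodes the 28 became 9 with DESeq2, 12 with limma-voom, 14 with at least 20 UMIs in 1 library, 15 with at least 8 UMIs from 3 marker genes, 12 with mitochondrial UMIs at most 10%, 14 without the 83 genes of low barcodes, 51 without lymphatic-like barcodes, 60 with fewer than 10 epithelial UMIs and 143 in the barcodes of clusters 2 to 6. Cluster 1 went from 96 to 19 with DESeq2. The cause was not tested, except that fewer genes or barcodes enter some of these fits.

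Over the barcodes inside the Svs and Pbsn limits, the knockout minus the heterozygote mean became 0.29 percentage points for the chosen share (-0.69 over all kept barcodes) and 0.81 for the endothelial share (0.12). Without centring within libraries, the cluster shares differed by -1.08 for capillary-like (9.84 with centring), 0.78 for venous-like (-3.09) and 15.4 for unnamed barcodes (10.7). The -1.08 covers 27 barcodes only. In that clustering, cluster 2 (109 barcodes) and cluster 3 (84) were capillary-like by markers. The added condition on leading genes left them unnamed. That cluster 2 held 29.11% of the knockout's chosen barcodes against 14.63% and 10.04%. That cluster 3 held 12.68% against 10.98% and 17.03%, with the knockout between the heterozygotes. The venous-like difference was -7.54 without other lineage markers, and the arterial-like one 8.19 in 4 clusters (-1.43 in 6). The arterial-like cluster held 142 barcodes in the cut into 4 and 27 in the cut into 6.

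Some log2 differences changed sign. Over all 606 barcodes 9530003J23Rik (-1.26) was 0.0702 with at least 8 marker UMIs. Without other lineage markers 9530003J23Rik was 1.69, Gm26917 1.00 (-2.01 with them), Flt1 -0.24 (0.93) and Nr3c1 -0.35 (0.35). In endothelial barcodes Nr3c1 (0.08) was -0.0254 with plain totals, -0.0126 with at least 20 UMIs, -0.34 without other lineage markers and -0.00217 with few epithelial UMIs. Leaving out 1 heterozygote gave Nr3c1 -0.0108 to 0.16 there, and Esr1 -0.15 to 0.13 and Nr3c1 -0.0922 to 0.41 in cluster 1. These leave-one-out values have no test, since no residual degree of freedom is left. Of 539 values for 32 genes in endothelial barcodes, 114 lost the call, 16 gained it and 4 turned. The endothelial sums of 246365 to 621609 UMIs limit genes near 10 CPM to a few UMIs per library.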
